A study of Rattus norvegicus with 6 samples.

Results

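The genes described here present antigen on major histocompatibility complex (MHC) molecules, and they were measured in primary rat cardiac fibroblast cultures treated with pertussis toxin (PTX) or water. Their members were fixed by name. They are B2m, Tap1 and Tap2 for class I loading, Psmb8, Psmb9 and Psmb10 for the immunoproteasome, and Cd74, RT1-Da, RT1-Ba and RT1-Bb for class II. All probe sets whose annotation names 1 gene, that gene being one of the 10, were taken. This gave 21 of the 8740 probe sets on the array, for 9 of the 10 genes, and Psmb10 is not analysed here. Class I loading had 4 probe sets, the immunoproteasome 3 and class II 14. A probe set is a group of short probes that reads 1 transcript or several close ones.

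The cultures came from ventricles of Sprague-Dawley rats aged 1 to 2 days. The 3 PTX samples received the toxin for 24 h and the 3 control samples received water, with 1 single-colour Affymetrix array each. PTX blocks signalling through Gi and Go proteins by ADP-ribosylating their alpha subunits. The sources used here give no dose. Nothing in the labels ties the samples of a group to separate isolations of cells, so p-values reflect only how these samples varied, and that variation may be technical.

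Class I molecules consist of a heavy chain and the light chain encoded by B2m, and nearly all nucleated cells display them. The immunoproteasome cuts cytosolic proteins into peptides, and the transporter built from Tap1 and Tap2 carries these into the endoplasmic reticulum for loading. Class II molecules are pairs of alpha and beta chains escorted by the invariant chain Cd74, and are found mainly on macrophages, dendritic cells and B cells. Both systems respond to interferon-gamma, class I through interferon regulatory factors and class II through the coactivator Ciita.

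Promoter stretches are shown to place known regulatory motifs of both systems in these genes. The windows run from 250 bases before to 50 after each gene's start, in RefSeq's annotation of the rat build GRCr8, and all 10 genes had one. Motifs were chosen with these sequences in view, so their counts among the 10 genes are a description only, and were searched on both strands. Stretches are written 5′ to 3′ on the gene's strand, with motif matches in capitals. In class I loading genes the capitals mark GAAA, any 2 bases and GAAA, the core of interferon-stimulated response elements, and GGACTTTCC, a kappa B core, on either strand. These 2 motifs overlapped in none of the stretches.
B2m, chr3:129549155-129549221, plus strand: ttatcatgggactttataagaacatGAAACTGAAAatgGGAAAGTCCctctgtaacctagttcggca
Tap1, chr20:4668569-4668689, minus strand: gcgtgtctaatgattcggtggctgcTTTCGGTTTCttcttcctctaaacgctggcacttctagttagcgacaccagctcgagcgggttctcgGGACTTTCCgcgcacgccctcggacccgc
Tap2, chr20:4652308-4652362, minus strand: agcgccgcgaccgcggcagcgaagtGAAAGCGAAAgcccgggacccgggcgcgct

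In class II chain genes the capitals mark CTGATTGG, the Y box bound by the factor NF-Y, and in RT1-Ba also TGACGTCA, a cyclic AMP response element that in class II promoters lies in the X box region.
RT1-Da, chr20:4515338-4515390, plus strand: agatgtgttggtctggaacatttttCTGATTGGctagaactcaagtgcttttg
RT1-Ba, chr20:4576963-4577038, plus strand: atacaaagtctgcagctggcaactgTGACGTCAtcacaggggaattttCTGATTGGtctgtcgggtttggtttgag
RT1-Bb, chr20:4604155-4604207, minus strand: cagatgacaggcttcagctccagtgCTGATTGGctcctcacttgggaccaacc

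The interferon-type core was in the windows of all 3 class I loading genes and of 2 immunoproteasome genes, Psmb8 and Psmb10, and in 0 of the 4 class II genes. It was in 3.92% of the 33469 promoter windows of the table. The kappa B core was in B2m and Tap1, against 0.305% of all windows. The Y box was in the 3 class II chain genes and, after the gene's start, in Psmb9, against 3.50% of all windows. TGACGTCA was in RT1-Ba only among the 10, against 1.83% of all windows. Within these windows, Psmb9 was thus the immunoproteasome gene with a Y box and without the interferon-type core. These matches describe letters and do not show a bound site.

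All 10 fibroblast markers were measured and tested, with summed signals of 73691 to 77326 on PTX arrays and 68672 to 82923 on control arrays. These sums rest mostly on collagens and Dcn, and single markers went both ways. Before adjustment 4 had a p under 0.05 with PTX higher and 1 with PTX lower, and 0 passed limma's adjusted threshold with all arrays. Of all tested probe sets 12.6% had an unadjusted p under 0.05, and 0.0763% passed the adjusted threshold. Named after their values were seen, Lum had a log2 change of signal + 16 (PTX minus control) of 1.10, Postn 1.07 and Thy1 -0.97. The Postn probe set is 1 of the 420 tested ones named rc_AA892, rc_AA893 or rc_AA894, whose median log2 change was 0.29. Without control replicate 1, Lum (adjusted p = 0.00662) and Thy1 (adjusted p = 0.00791) passed, where 2.19% of all tested probe sets did. Of 10 cardiomyocyte markers 9 were tested. The 10 had sums of 219282 to 247838 with PTX and 253172 to 332138 in controls, above all sums of the fibroblast markers. The cultures thus held cardiomyocyte transcripts as well, at high signals. The PTX sums lay below all control sums, 9 of the 10 log2 changes were negative, and 3 markers had PTX below all controls. Of all tested probe sets 10.6% had PTX below all controls. Positive log2 changes were found in 47.1% of them, and in 34.8% of those whose names do not start with the prefix rc_. The median log2 change of the 10 cardiomyocyte markers was -0.28, or -0.12 without control replicate 1. The part of these cells in the other results was not tested. Median signals of the arrays were 63.1 to 68.85. Control replicate 1 stood apart, with correlations of 0.952 to 0.960 with the other arrays, against 0.978 to 0.985 among those 5.

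Signals were compared as log2(signal + 16), so a log2 change is PTX minus control on that scale and understates the change of low signals. Probe sets under the 40th percentile of mean log2 signal, which corresponds to a signal of about 33.3, were left out of the test. Of the 21 member probe sets 9 were tested, all 4 for class I loading, 2 of 3 for the immunoproteasome and 3 of 14 for class II. With limma, 0 of these 9 had an adjusted p under 0.05, and 0 had an unadjusted p under 0.05. Of all 5244 tested probe sets 0.0763% passed the adjusted threshold and 12.6% the unadjusted one. The smallest adjusted p among the members was 0.417, for B2m. In a fit of all 8740 probe sets with no filter, 0 members passed the adjusted threshold, 0.0343% of all probe sets did so, and 2 members had an unadjusted p under 0.05, one each of B2m and Cd74, where 9.89% of all probe sets did. Without control replicate 1, 2.19% of tested probe sets passed the adjusted threshold, or 0.343% with no filter, and still 0 members did.

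The 3 class I loading genes had higher signals on PTX arrays than on control arrays, on each gene's brightest probe set, but none passed the test. B2m, the class I light chain, had signals of 3250.5, 2888.0 and 3124.7 on the PTX arrays, against 2044.3, 2814.0 and 2568.7 on the control arrays. All 3 PTX values lay above all 3 control values, and control replicate 1 was the lowest. The means were 3088 ± 184 with PTX and 2476 ± 393 in controls (SD, n = 3 each). The log2 change was 0.33 ± 0.15 (SE), a fold of 1.26, with a 95% interval of -0.02 to 0.67 and an adjusted p of 0.417. Without control replicate 1 the log2 change was 0.20 (adjusted p = 0.408).

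Tap1, one chain of the peptide transporter, was read by 2 probe sets that went opposite ways. Its brighter probe set X57523_g_at had 175.9, 198.0 and 162.5 on the PTX arrays, against 129.9, 158.7 and 117.9 on the control arrays. All PTX values exceeded all control values, by a narrow margin. The log2 change was 0.37 ± 0.17 (SE), with a 95% interval of -0.03 to 0.76 and an adjusted p of 0.420. The other, X57523_at, had 96.6, 162.1 and 101.1 with PTX, against 223.1, 144.4 and 121.0 in controls. There the groups overlapped, control replicate 1 was the highest array, and the log2 change was -0.39 ± 0.27 (adjusted p = 0.534), or -0.16 without that array. Which of the 2 reads the transcript better was not tested.

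Tap2, the partner chain of the transporter, had 117.3, 92.4 and 103.6 on the PTX arrays, against 62.3, 81.8 and 88.3 on the control arrays. Its lowest PTX value was just above its highest control value. The log2 change was 0.37 ± 0.20 (SE), with a 95% interval of -0.08 to 0.83 (adjusted p = 0.450), or 0.25 without control replicate 1.

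The log2 changes of the immunoproteasome subunits were positive on all 3 probe sets, but neither tested one passed. Psmb8, also called LMP7, replaces the constitutive subunit Psmb5 and had 258.3, 223.3 and 222.0 with PTX, against 257.7, 226.3 and 192.3 in controls. The groups overlapped almost wholly. The log2 change was 0.06 ± 0.16 (SE), with a 95% interval of -0.31 to 0.43 (adjusted p = 0.880), or 0.15 without control replicate 1.

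Psmb9, also called LMP2, replaces the constitutive subunit Psmb6. Its probe set D10757_g_at had 126.4, 122.2 and 125.4 on the PTX arrays, against 108.9, 108.6 and 101.2 on the control arrays. Every PTX array lay above every control array, and the spread within each group was small, with SDs of 2.19 with PTX and 4.36 in controls. The log2 change was 0.20 ± 0.15 (SE), with a 95% interval of -0.15 to 0.56 (adjusted p = 0.562), the SE being limma's, which takes up the spread of other probe sets of like brightness. The other Psmb9 probe set, D10757_at, lay under the filter and gave no order, with 60.2, 55.3 and 14.9 with PTX and 9.7, 17.1 and 51.7 in controls.

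**Figure D1:**
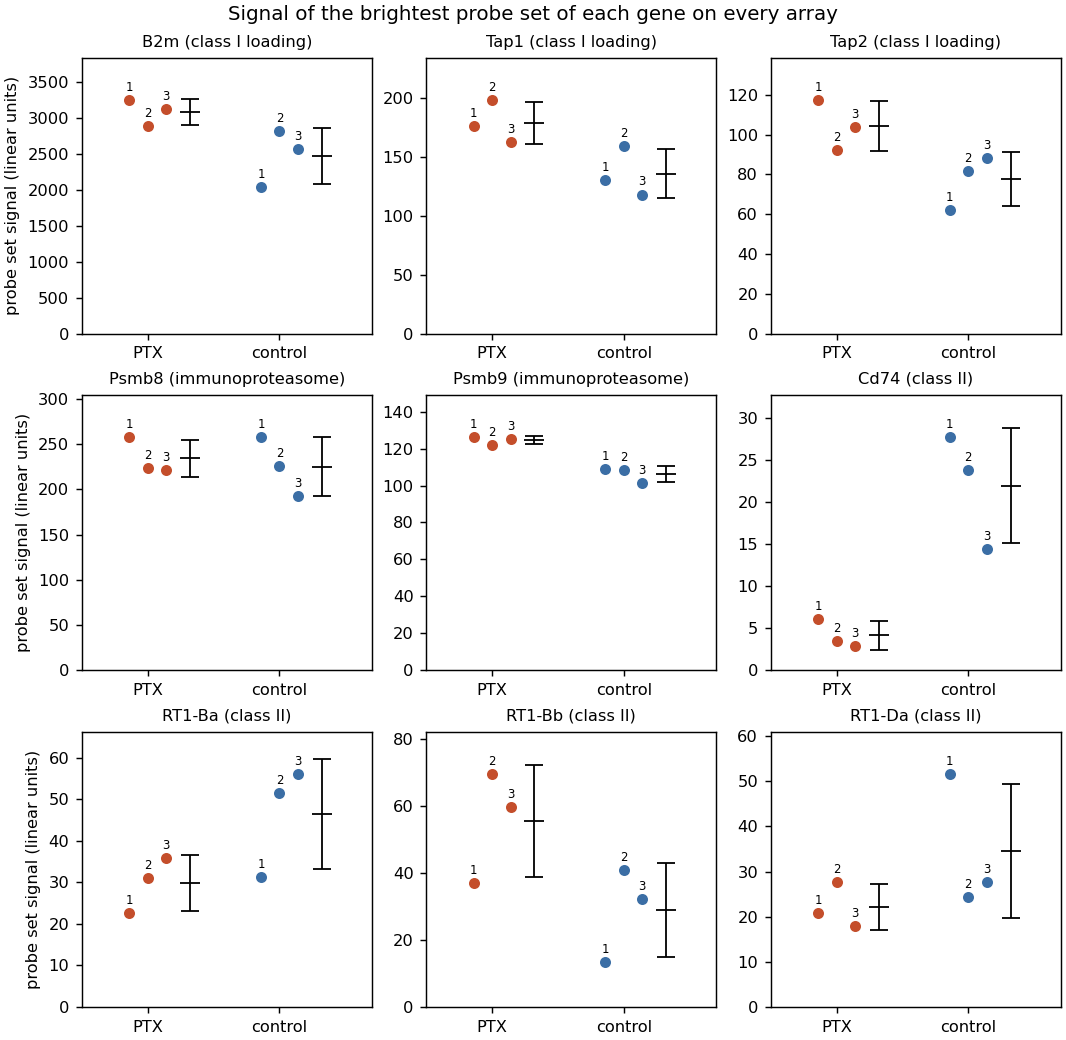
Linear signal (vertical axis, from 0, a scale of its own in each panel) of the brightest probe set of each of the 9 measured genes, for PTX and control. Points are the arrays, numbered by replicate, and bars to their right give the mean ± SD (n = 3). The PTX points lie above all control points for B2m, Tap1, Tap2 and Psmb9, and below them for Cd74.

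Among the 6 tested probe sets of class I loading and the immunoproteasome, the PTX arrays lay above all control arrays in 4. Over all tested probe sets, 12.0% had PTX above control without overlap and 22.6% had no overlap in either direction. All 5 brightest probe sets of these genes had positive log2 changes, while the fainter Tap1 probe set had -0.39. The median was 0.37 over the 3 loading genes and 0.13 over the 2 immunoproteasome genes, against -0.03 over all 8740 probe sets. Of these members only B2m has a probe set whose name starts with the prefix rc_. Tested rc_ probe sets had a median of 0.13, and tested probe sets without that prefix -0.10.

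Class II genes had low signals in both groups. Over their 14 probe sets and 6 arrays the signals ran from 0.9 to 69.8, and 11 of the 14 lay under the filter, with mean signals of 1.68 to 28.4. No detection calls were used, so these signals cannot be told from background. In bulk cultures, fewer cells of a type and less RNA per cell cannot be told apart.

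Cd74, the invariant chain, had its largest difference on the probe set X13044_at. That probe set had 6.1, 3.5 and 2.9 on the PTX arrays, against 27.8, 23.8 and 14.4 on the control arrays. The groups did not overlap, with all PTX values under 7 and all control values over 14. The log2 change was -0.90 ± 0.21 (SE), with a 95% interval of -1.38 to -0.42, in the fit with no filter. Its adjusted p there was 0.278, and 0.198 without control replicate 1, where the log2 change was -0.79. The size depends on the constant added to the signal, with -2.15 for a pseudocount of 1 and -0.33 for one of 64.

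The other 3 Cd74 probe sets did not separate the groups. X14254cds_at had 11.2, 8.2 and 4.2 with PTX and 28.0, 11.4 and 6.9 in controls, a log2 change of -0.35 that was -0.08 without control replicate 1. X14254cds_g_at and X13044_g_at had log2 changes of -0.09 and 0.01, with all signals between 3.9 and 11.3.

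The alpha chain genes RT1-Da and RT1-Ba had overlapping groups on all 5 of their probe sets. RT1-Da, the alpha chain of the rat D molecule, had 20.9, 27.7 and 17.9 with PTX and 51.7, 24.4 and 27.6 in controls on M15562_g_at. The highest value was again control replicate 1, and the log2 change of -0.38 became -0.15 without it. On M15562_at it was -0.17, with replicate 2 the high array in both groups, at 34.0 with PTX and 34.6 in controls.

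RT1-Ba, the alpha chain of the B molecule, had 22.7, 31.0 and 35.9 on the PTX arrays, against 31.3, 51.6 and 56.2 on the control arrays, on M22366_at. This is its one tested probe set. Its log2 change was -0.43 ± 0.28 (SE, adjusted p = 0.506), and -0.62 without control replicate 1, which here was the lowest control. Its other 2 probe sets had log2 changes of -0.18 and -0.12.

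RT1-Bb, the beta chain of the B molecule, was read by 5 probe sets, and its 2 tested ones disagreed in sign. M36151cds_s_at had 37.0, 69.8 and 59.9 with PTX, against 13.5, 41.0 and 32.2 in controls, with overlapping groups. Its log2 change was 0.70 ± 0.33 (SE, adjusted p = 0.430), and 0.42 without control replicate 1. X56596_at had 28.0, 20.2 and 28.4 with PTX, against 54.8, 44.8 and 33.9 in controls. There all PTX values lay below all control values, and the log2 change was -0.53 ± 0.26 (SE, adjusted p = 0.438). No direction can be given for RT1-Bb from these values. Its remaining 3 probe sets lay under the filter, with log2 changes of -0.25 to 0.06, and the -0.25, of M15358cds_at, was -0.06 without control replicate 1.

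**Figure D2:**
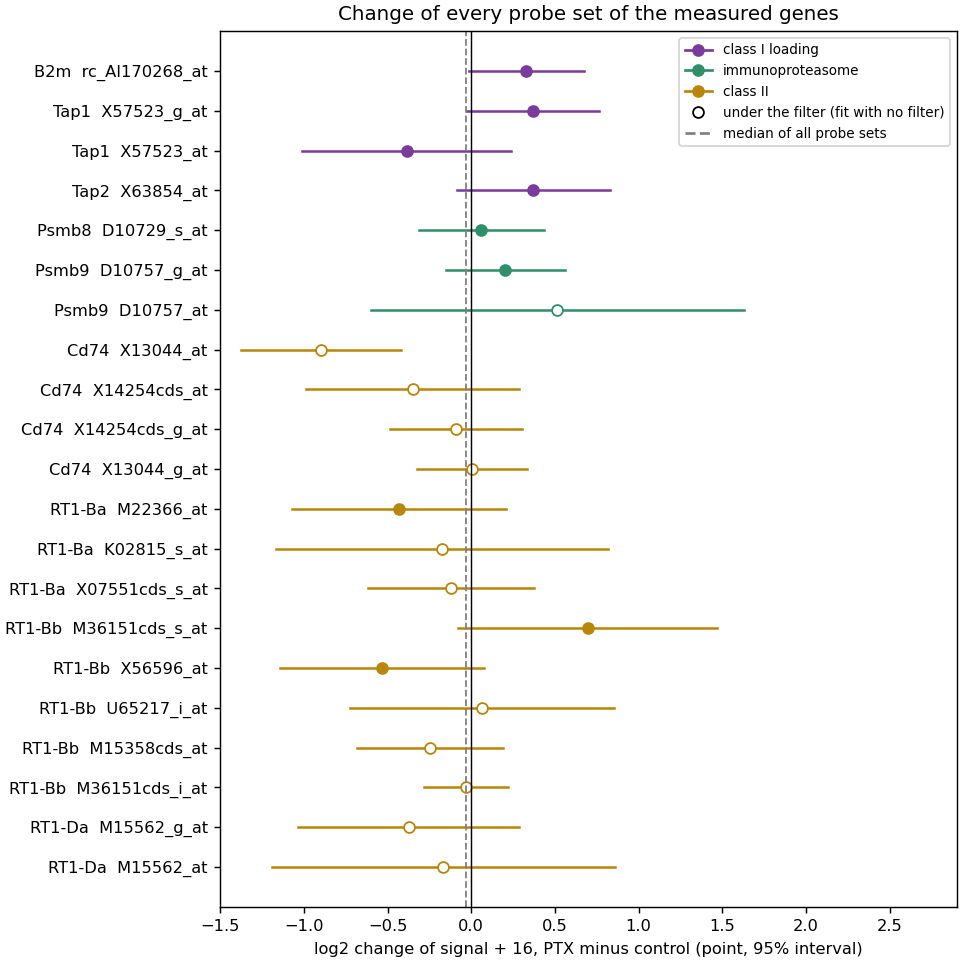
Log2 change of signal + 16, PTX minus control (horizontal axis), for each of the 21 member probe sets, with 95% intervals. Filled points were tested after the filter, open points come from the fit with no filter, and the dashed line is the median of all probe sets. The points of Tap1 and of RT1-Bb lie on both sides of 0, and the interval of 1 Cd74 probe set lies below 0 before adjustment.

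Set side by side, the brightest probe sets had median log2 changes of 0.37 for class I loading, 0.13 for the immunoproteasome and -0.40 for class II. The difference between these medians was not tested. Of the 14 class II probe sets 11 had negative log2 changes, and the median over the 14 was -0.17. Of all probe sets under the filter and without the rc_ prefix, 42.1% were positive and the median was -0.05. In 4 of the 14 the PTX arrays lay below all controls, against 9.06% of all 8740 probe sets. Among all 21 members PTX and control did not overlap in 8, with PTX higher in 4 and lower in 4, against 18.0% of all probe sets, 8.91% with PTX higher. Of the 9 tested, 1 had PTX below all controls, against 10.6% of all tested probe sets. The 4 class II probe sets with PTX lower are 1 of Cd74 and 3 of RT1-Bb, and 2 of these 3 RT1-Bb probe sets had mean signals under 8. Averaging each gene's probe sets moved the class II median to -0.26, a pseudocount of 64 moved it to -0.21, and a pseudocount of 1 to -0.58.

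**Figure D3:**
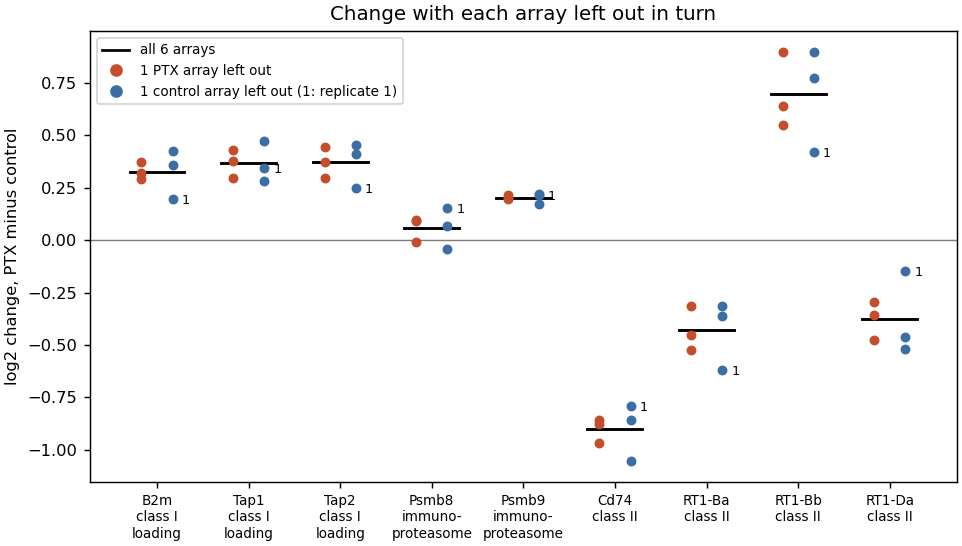
Log2 change, PTX minus control (vertical axis), of the brightest probe set of each gene with all 6 arrays (black bar) and with 1 PTX or 1 control array left out (points). Points marked 1 leave out control replicate 1. Among the 9 genes, Psmb8 alone has points on both sides of 0, and without control replicate 1 RT1-Da lies at -0.15 and RT1-Bb at 0.42.

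The other genes of the 2 systems had no member past the adjusted threshold in any list, where 0.0763% of all tested probe sets passed. For class I heavy chains and peptide loading, 11 of 36 listed genes had a probe set and 9 were tested. The median log2 change was -0.02, with 4 positive and 7 negative, and 0 had an unadjusted p under 0.05. Each gene counts here by its brightest probe set. RT1-S3, named after its values were seen, had -0.15 on that one and -0.11 on AF029240_at. On rc_AI235890_s_at it had 0.33 (adjusted p = 0.439). Heavy chains are near-identical paralogs, and probe sets ending in _f_at read several of them, so their values cannot be assigned to 1 gene. The following 2 were picked after their values were seen. RT1-CE16 averaged 4584 ± 146 with PTX and 4642 ± 635 in controls, a log2 change of -0.01 (adjusted p = 0.982). RT1-A, the classical class I heavy chain, had 0.02 (adjusted p = 0.978). The smallest p values among tested genes of the list were those of Canx, a chaperone of new heavy chains (-0.25, adjusted p = 0.450), RT1-CE12 (0.13) and RT1-N3 (0.37). Without control replicate 1 RT1-CE12 had 0.21 and RT1-N3 0.08.

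Class II chains, chaperones and processing enzymes were measured by 11 of 15 genes, of which 7 were tested. Their median log2 change was -0.08, with 4 positive and 7 negative. RT1-DOa, a chain of the DO molecule that restrains peptide exchange, had 147.5, 146.3 and 182.1 with PTX, against 252.0, 222.9 and 164.8 in controls, with overlap (-0.38, adjusted p = 0.444). The lysosomal protease Ctsb had 0.21, or 0.14 without control replicate 1. Ctsl, another, had 0.17, and its sign turned without that array (-0.0097). The median of this list was 0.03 without control replicate 1.

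All 4 measured genes of the proteasome activator and constitutive subunits had negative log2 changes, and their median was -0.16. It was -0.06 without control replicate 1, where the 2 PA28 activator subunits turned positive, Psme1 at 0.14 and Psme2 at 0.06. Psmb5, the subunit that Psmb8 replaces, had 3358.7, 4206.9 and 4174.5 with PTX, against 4824.6, 4703.4 and 4231.4 in controls. The groups did not overlap, and its log2 change was -0.23 ± 0.13 (SE, adjusted p = 0.469). Pomp, a proteasome assembly factor, had -0.30 (adjusted p = 0.439), or -0.18 without control replicate 1, and Psme1 had -0.08 with all arrays. The difference between Psmb8 and Psmb5 was not tested.

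Of 16 measured regulators 11 were tested, and 1 had an unadjusted p under 0.05, where 12.6% of all tested probe sets did. That was Rfx5, which binds the X box of class II promoters. Rfx5 had 222.0, 198.3 and 237.1 on the PTX arrays, against 107.1, 118.9 and 162.5 on the control arrays. The groups did not overlap, and its log2 change was 0.71 ± 0.19 (SE, adjusted p = 0.250), or 0.60 without control replicate 1 (adjusted p = 0.131). It is read by 1 of the 420 tested probe sets named rc_AA892, rc_AA893 or rc_AA894, which had a median log2 change of 0.29. The kinase Jak2 of interferon signalling had 0.33 (adjusted p = 0.433) and the type I interferon receptor chain Ifnar1 0.56 (adjusted p = 0.418), or 0.28 without control replicate 1. Ifnar1 belongs to 375 tested probe sets named rc_AA799 or rc_AA800 with a median of 0.56. Irf1, the interferon regulatory factor that drives class I genes, was added after its values were seen. It had 667.6, 489.3 and 570.7 with PTX, against 478.0, 477.3 and 439.6 in controls, without overlap (0.29, adjusted p = 0.450). Ifng, also named after its values were seen, lay under the filter, with 2.8, 3.6 and 26.3 with PTX and 7.2, 9.3 and 18.3 in controls.

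**Figure D4:**
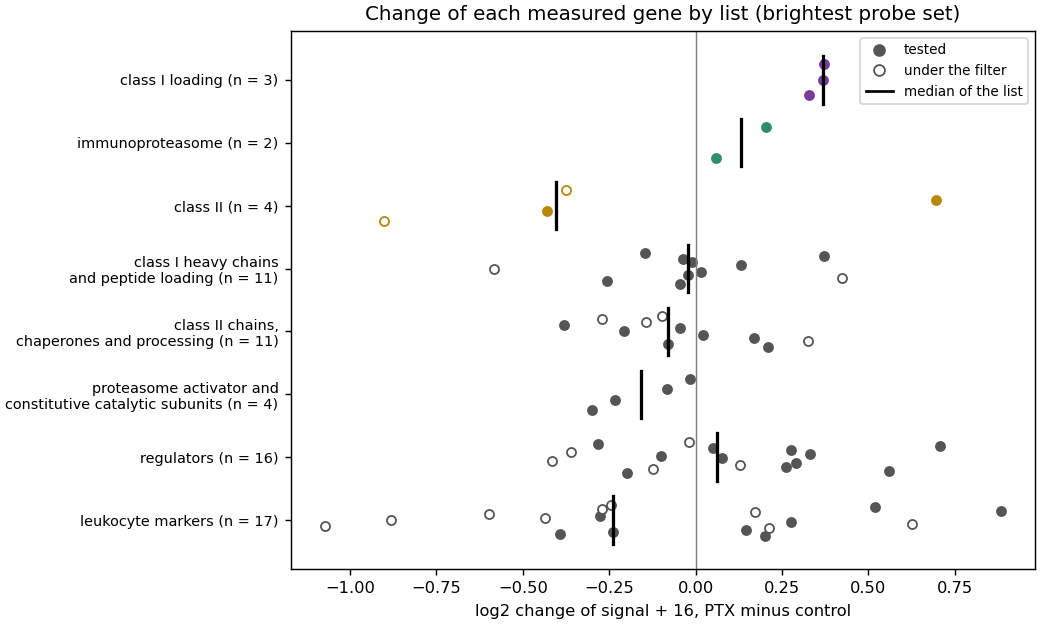
Log2 change, PTX minus control (horizontal axis), of each measured gene on its brightest probe set, in the 3 member groups, 4 lists of other genes of the pathway and the leukocyte markers. Filled points were tested, open points lay under the filter, and black bars are medians. The medians of the 4 pathway lists lie between -0.16 and 0.06. Those of class I loading, the immunoproteasome and class II are 0.37, 0.13 and -0.40, and that of the leukocyte markers is -0.24. Of the 4 class II genes 2 lay under the filter.

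Leukocyte markers were read beside these genes. Their list takes in cells that carry class II and others, such as T cells (Cd3d, Cd3g, Cd8a). Of 31 listed, 17 were measured and 9 of these lay under the filter, with none listed at 0. Their summed signal was 4593 to 5728 on PTX arrays and 3847 to 3917 on control arrays. Lyz2, the brightest, made up most of that sum, with 3276.3, 4149.7 and 2908.4 with PTX and 2138.6, 2516.8 and 2486.5 in controls (0.52, adjusted p = 0.303). Its probe set is 1 of the 420 tested ones named rc_AA892, rc_AA893 or rc_AA894, whose median log2 change was 0.29. Fcgr2b, an inhibitory Fc receptor, had 0.88 (adjusted p = 0.0876), and passed the threshold without control replicate 1 (adjusted p = 0.00791). The third by p among those tested, C1qb, a complement gene of macrophages, had -0.39 (adjusted p = 0.438), or -0.23 without control replicate 1. Of the 8 tested, 3 had PTX above all controls, against 12.0% of all tested probe sets, and 0 had PTX below. Under the filter, Cd3g (-1.07) and Cd80 (-0.44), named after their values were seen, had PTX below all controls. Of all 8740 probe sets 9.06% did. Ptprc, the pan-leukocyte antigen CD45, was added after its values were seen and had 29.2, 18.6 and 22.8 with PTX and 62.1, 16.8 and 23.3 in controls. Of the 17, 8 had positive and 9 negative log2 changes, with a median of -0.24, or 0.13 without control replicate 1. Endothelial markers had 3 of 7 measured, summing to 91.4 to 149.5 with PTX and 117.8 to 162.7 in controls. The part of either cell type in the class II values was not tested.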

How the data were processed

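Per the submitters' processing notes, the arrays went through Affymetrix GCOS. The sources used here give no version, scaling target or detection calls. Values were deposited as signal intensities on a linear scale. Trimmed means were within 493 to 495 on all arrays, so no scaling was added. Symbols come from the platform annotation, updated for 6985 of 7006 probe sets through RefSeq's GRCr8 gene table.

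PTX was set against control for each probe set in limma 3.58.1 under R 4.3.3. The fits used lmFit and eBayes with a trend on mean signal. P-values are two-sided, and those adjusted by Benjamini-Hochberg over all tested probe sets were called at 0.05. The procedure was tested on simulated data, in which no array stood apart as control replicate 1 did here. The brightest probe set by mean log2 signal stands for a gene. The members and lists were chosen with earlier results of these data known. All probe sets of members are named, and from each other pathway list those past the threshold and up to 3 tested genes with the smallest p. Markers are given as summed signals, with the 3 smallest p of tested genes and the brightest named for leukocytes. Other names were added after their values were seen. The alternatives were other pseudocounts, filters and scalings, the replicate block, other variance models, array weights, the removal of rc_AA799 and rc_AA800 probe sets, and each array left out. The fit without control replicate 1 and with no filter was added after seeing the data.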

Additional observations from a re-analysis of the deposited data

How the results depend on the processing

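With limma, 0 of the member probe sets passed under each of the 19 alternatives, array quality weights and the replicate block included. Probe sets under the filter of an alternative had no adjusted p in it, so they could not pass there. Other filters, the replicate block, other variance models and the removal of rc_AA799 and rc_AA800 probe sets leave the log2 change as it is. No sign could differ in those pairs. The fit without control replicate 1 and with no filter repeats the log2 changes of the fit without that array. Over all 399 pairs of a member probe set and an alternative, the log2 change had the other sign in 18. Of these 15 came from probe sets under the filter and 3 from Psmb8, with -0.023 under quantile normalization and -0.043 to 0.15 with an array left out. The class I loading median ranged from 0.25 to 0.43 and the immunoproteasome median from 0.05 to 0.21 over the alternatives. The class II median was -0.58 with a pseudocount of 1, -0.21 with one of 64 and -0.26 with each gene's probe sets averaged, and -0.46 to -0.33 with an array left out.

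Of all probe sets 4 were higher and 0 lower. The number higher was 2 with a pseudocount of 1 or quantile normalization, 7 with a pseudocount of 64, 0 without a trend, 9 with robust variances, 66 with array weights and 8 without rc_AA799 and rc_AA800 probe sets. With an array left out it was 0 to 97 (97 without control replicate 1, 30 without control replicate 3, 0 without any one PTX array), and the number lower 0 to 18. Array weights gave 15 lower. Without control replicate 1 and with no filter, chosen after seeing the data, 26 were higher and 4 lower. With the replicate block 0 were higher. Deviations of same-numbered arrays correlated by -0.05, -0.05 and 0.01. Arrays of different numbers were not compared in this way, so these values cannot decide whether the numbers pair the samples. The number of arrays limits the precision, and low signals carry no bound.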

Other observations

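Probe sets whose annotation names several genes were kept out of the member values. One of them, rc_AA859372_s_at, lists B2m beside 5 others, among them the ribosomal RNA genes Rn18s and Rn45s. It had 2853.0, 3140.1 and 453.1 on the PTX arrays, against 9198.8, 9872.9 and 7444.8 on the control arrays. The groups did not overlap, with a log2 change of -2.44 ± 0.65 (SE) and a limma adjusted p of 0.261, while the probe set that names B2m alone had 0.33. Which of the 6 transcripts it reads is not known here.

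The probe set AF074609mRNA_f_at names the class I heavy chain genes RT1-A, RT1-CE16 and RT1-A1 together. It had 899.3, 791.5 and 911.2 with PTX, against 534.4, 847.5 and 751.2 in controls, a log2 change of 0.30 with overlapping groups (limma adjusted p = 0.492). Another that names the same 3 genes, M64795_f_at, had 397.3, 422.3 and 428.8 with PTX, against 467.0, 392.9 and 298.4 in controls (0.13, adjusted p = 0.750).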
